A study of Homo sapiens with 6 samples.

Results

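The cyclin-dependent kinase inhibitor genes CDKN1A, CDKN1B, CDKN1C, CDKN2A, CDKN2B, CDKN2C, CDKN2D and CDKN3 were followed in open chromatin of EndoC-βH3 cells. EndoC-βH3 is a human beta cell line derived from fetal pancreas. It was immortalised with hTERT and with SV40 Large T antigen, a viral protein that binds p53 and Rb, and both groups of cells descend from this single line. It also carries CreER, a recombinase switched on by 4-hydroxy tamoxifen (4-OHT). ATAC-seq, which uses the Tn5 transposase to cut open chromatin, had been run on 3 libraries of non-senescent control cells and on 3 libraries of cells made senescent by 4-OHT for 3 weeks, which removes the immortalising transgenes. Each library came from 100000 cells, and the genotype of all was labelled WT. A region of open chromatin (hg38) was counted as a promoter region of a gene when it came within 2 kb of the start, upstream or downstream, of one of its protein-coding transcripts. It was counted as distal when it was no promoter region of any gene, its middle lay nearest to a start site of the gene among all protein-coding start sites, and the distance was at most 100 kb. The 8 genes had 38 regions of 108542 in all. Of these 10 were promoter regions, of 20094 in the genome, and 28 were distal, of 55158 regions that met this definition for any gene. Without the limit on distance 88448 regions lay outside promoters.

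The value used for each region was its mean signal, the authors' mean over all 6 libraries of the read count divided by the DESeq2 size factor. It mixes senescent and non-senescent cells, so nothing below compares the groups, and it comes with no spread between libraries. The depth of each library could not be read from it, so no interval is given for any value. Because wide regions collect more reads, levels are also given per kb of region. With 1 value per region there is no test, and a rank is a description of these pooled libraries. The cell type was checked on 13 beta cell markers. All 13 had a promoter region, with a median of 1505 per kb, from 286.2 at G6PC2 to 2715 at INS, the insulin gene. Of these 10 were above the median of all genes, and IAPP (434.7), SLC30A8 (541.2) and G6PC2 were below it. Of 19 markers of other cell types 14 had one, with a median of 251.6 per kb, and PRSS1, CFTR, PDGFRB, CDH5 and PTPRC had none. The 5 of these above the median of all genes were CPA1 (1298), CD68 (920.6), GHRL (814.4), IRX2 (771.2) and KRT19 (736.6).

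Cyclin-dependent kinases drive the cell through its cycle by phosphorylating Rb and its relatives, which frees the E2F factors to transcribe genes of DNA replication. The CIP/KIP proteins p21 (CDKN1A), p27 (CDKN1B) and p57 (CDKN1C) bind a broad range of cyclin and kinase complexes. The INK4 proteins p16 (CDKN2A), p15 (CDKN2B), p18 (CDKN2C) and p19 (CDKN2D) bind CDK4 and CDK6 and keep them from D-type cyclins. CDKN3 is a phosphatase that removes an activating phosphate from CDK2. In pancreatic beta cells p16 rises with age and is a marker of senescence.

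Promoters were open at all 8 genes, and the CIP/KIP genes had lower levels than the others. At the 4 INK4 genes the highest promoter region reached 943.0 to 1656 per kb and at CDKN3 1286 per kb, against 578.6 to 812.9 per kb at the 3 CIP/KIP genes. By this measure the CIP/KIP genes lay below all the others, while CDKN3 lay within the INK4 range. Without division by width the CIP/KIP genes were again lowest, with mean signals of 663.3 to 876.0. Those of the INK4 genes were 1749 to 2520 and that of CDKN3 was 1946. On this scale CDKN2A stood at 1849 through its p14ARF region, which also held the start of CDKN2B-AS1. Its p16 region had a mean signal of 1238. The second promoter regions of CDKN2A (766.8 per kb) and CDKN2C (809.6 per kb) fell just under the 812.9 of CDKN1C. Genes are not replicates, so this split is a description with no test.

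The stretches just upstream of 6 start sites are printed because they show the sequence under the promoters with the highest and the lowest level per kb and under both promoters of CDKN2A. They come from the RefSeq promoter table (GRCh38.p14), which held 7 of the 8 genes. CDKN1C had no entry. Each is written 5′ to 3′ on the strand of its gene and stops where an exon of a coding transcript begins. Capitals mark the matches to any motif of the search, here SP1 boxes (GGGCGG or its reverse complement CCGCCC), NF-Y boxes (CCAAT or ATTGG) and the NRF1 motif (GCGCATGC). All 6 stretches lay inside a region of open chromatin.
CDKN2B, chr9:22009306-22009555, minus strand, the highest level per kb: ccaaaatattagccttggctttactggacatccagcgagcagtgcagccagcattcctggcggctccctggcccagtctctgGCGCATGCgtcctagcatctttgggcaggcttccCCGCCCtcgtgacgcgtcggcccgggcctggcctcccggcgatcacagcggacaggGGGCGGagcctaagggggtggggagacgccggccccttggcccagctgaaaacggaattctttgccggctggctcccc
CDKN2D, chr19:10569060-10569229, minus strand: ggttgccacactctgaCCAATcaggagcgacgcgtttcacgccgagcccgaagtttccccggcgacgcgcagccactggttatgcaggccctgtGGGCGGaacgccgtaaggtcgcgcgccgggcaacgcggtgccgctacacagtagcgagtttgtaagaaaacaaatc
CDKN2A upstream of p16, chr9:21974867-21975107, minus strand: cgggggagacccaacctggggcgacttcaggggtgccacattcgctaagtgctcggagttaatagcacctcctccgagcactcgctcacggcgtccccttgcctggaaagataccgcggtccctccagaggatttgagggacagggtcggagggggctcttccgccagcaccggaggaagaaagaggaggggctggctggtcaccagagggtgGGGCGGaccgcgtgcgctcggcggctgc
CDKN2A upstream of p14ARF, chr9:21995325-21995574, minus strand: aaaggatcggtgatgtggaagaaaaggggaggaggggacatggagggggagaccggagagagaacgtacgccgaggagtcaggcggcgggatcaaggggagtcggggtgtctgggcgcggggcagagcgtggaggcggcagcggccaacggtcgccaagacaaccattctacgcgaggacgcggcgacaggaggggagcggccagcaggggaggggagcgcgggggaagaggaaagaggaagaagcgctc
CDKN1A, chr6:36678464-36678709, plus strand: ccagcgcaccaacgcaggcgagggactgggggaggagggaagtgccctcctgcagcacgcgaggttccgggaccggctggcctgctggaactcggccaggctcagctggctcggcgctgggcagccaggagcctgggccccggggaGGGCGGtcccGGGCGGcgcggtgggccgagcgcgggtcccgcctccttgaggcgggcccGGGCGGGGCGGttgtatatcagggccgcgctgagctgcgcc
CDKN1B, chr12:12717118-12717367, plus strand, the lowest level per kb: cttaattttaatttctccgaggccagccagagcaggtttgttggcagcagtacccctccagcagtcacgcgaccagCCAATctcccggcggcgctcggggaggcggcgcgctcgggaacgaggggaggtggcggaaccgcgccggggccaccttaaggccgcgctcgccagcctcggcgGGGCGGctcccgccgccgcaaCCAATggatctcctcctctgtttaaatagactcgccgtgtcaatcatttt

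The stretch of CDKN1A held 4 SP1 boxes, of which a pair overlapped, and had 76.8% GC bases. That of CDKN1B held 1 SP1 box and 2 NF-Y boxes. CDKN2B had 2 SP1 boxes and the NRF1 motif, while the p14ARF stretch of CDKN2A matched none of the motifs. Among 35116 upstream stretches of 250 bases in the table, 42.6% held an SP1 box, 2.63% the NRF1 motif and 32.0% an NF-Y box.

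**Figure D1:**
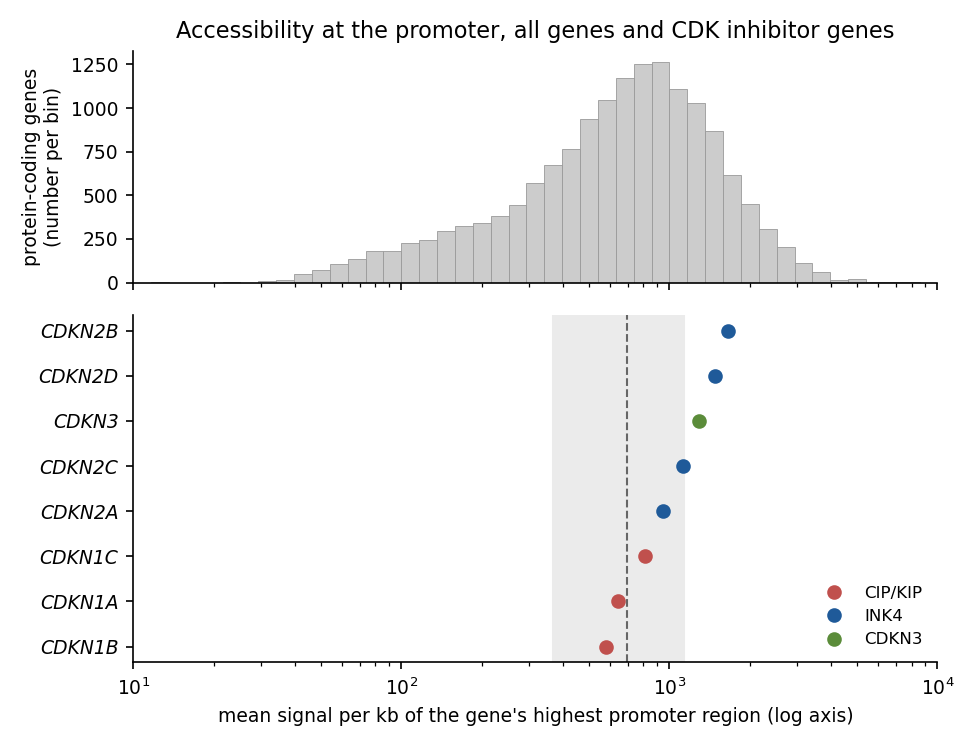
Top, number of protein-coding genes by the mean signal per kb of their highest promoter region (log axis, 15490 genes). Bottom, the same value for each CDK inhibitor gene, 1 point per gene as the authors' mean over all libraries, with the median of all genes (695.1, dashed) and the span between the quartiles (367.8 to 1135, grey). The CIP/KIP genes sit lowest, and 6 of the 8 genes lie right of the dashed line.

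Among the 15490 protein-coding genes with a promoter region, the level of CDKN2B was at percentile 89.6, CDKN2D at 85.9, CDKN3 at 80.7 and CDKN2C at 74.8. CDKN2A followed at percentile 66.1, CDKN1C at 58.2, CDKN1A at 46.3 and CDKN1B at 41.3. The median of the 8 genes was 1035 per kb, at a median percentile of 70.4, against 695.1 per kb over all genes. CDKN1A and CDKN1B were the members below that median. Without division by width they were at percentiles 50.5 and 51.8, and CDKN1C alone was below, at 40.0. All 10 promoter regions lay above the median of all promoter regions, 506.6 per kb.

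Among the CIP/KIP genes, CDKN1A encodes p21, the inhibitor that p53 switches on after DNA damage. Its promoter region, chr6:36678345-36679660, spanned 1316 bp with a mean signal of 849.3. The region also held the start of DINOL, a noncoding RNA, so the signal there cannot be divided between these genes. CDKN1B encodes p27, which halts cells in G1. Its promoter region at chr12:12716756-12718269 had a mean signal of 876.0 over 1514 bp. CDKN1C, an imprinted gene expressed from the maternal copy, had the narrowest promoter region, chr11:2885118-2885933, with 663.3 over 816 bp. It covered all 5 annotated coding start sites of the gene.

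Among the INK4 genes, CDKN2A has separate promoters for p16 and for p14ARF, a protein that stabilises p53 and shares exons with p16 in another reading frame. Each had its own region. That of p16, chr9:21974327-21975639, had a mean signal of 1238 over 1313 bp, or 943.0 per kb. That of p14ARF, chr9:21993952-21996362, had a mean signal of 1849 over 2411 bp, or 766.8 per kb. The p14ARF region was thus higher in total and lower per kb, and it held the start of CDKN2B-AS1, a noncoding RNA transcribed in the opposite direction. CDKN2B, which encodes p15 and lies next to CDKN2A, had 1749 over 1056 bp at chr9:22008668-22009723. Its 1656 per kb was the highest of the 8 genes.

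CDKN2C also had 2 promoter regions; of all genes with any, 30.38% had 2 or more. The stronger, chr1:50968059-50970295, spanned 2237 bp with a mean signal of 2520, the largest of all 10. It also held the start of a noncoding RNA, so the signal there cannot be divided between these genes. The other, chr1:50959392-50960773, had 1119, or 809.6 per kb, and was shared with the start of FAF1, a protein-coding gene read the other way. CDKN2D had 1 region at chr19:10568494-10569719 with a mean signal of 1808 over 1226 bp. At CDKN3 the region chr14:54396509-54398021 had a mean signal of 1946 over 1513 bp.

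Of the 37 coding start sites annotated for the 8 genes, 31 (83.8%) lay inside a region, against 45614 of 78566 (58.1%) over all protein-coding genes. Each of the 8 genes had at least 1 such site, against 14001 of 19663 genes (71.2%). The 6 sites outside were 2 of CDKN1A, at 36676460 and 36676490, 3 of CDKN2A between 21971332 and 21971400, and 1 of CDKN3 at 54408564. The 2 CDKN1A sites were 1885 and 1855 bp from the nearest region, and those of CDKN2A 2927 to 2995 bp. That of CDKN3 was 10543 bp away.

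Of the 2 CDKN1A sites outside open chromatin, that at 36676460 lay inside a match to the p53 motif and that at 36676490 just past it. The motif is a pair of decamers, each with a core of 4 bases. The match is shown because CDKN1A is a well-known target of p53. It lay 2265 bases upstream of the start at 36678714, with no gap between the decamers and 2 mismatches, and capitals mark the cores.
CDKN1A upstream match, chr6:36676449-36676468, plus strand: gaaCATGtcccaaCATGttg
No region covered it, and the nearest, the promoter region itself, began 1877 bp away. Another match in the 5 kb upstream, at 36674719, was 2832 bp from the nearest region. Matches under looser limits are common. With up to 2 mismatches and a gap of up to 13 bases, 4621 of 18139 genes (25.5%) had one in the 5 kb upstream of 1 start site each. The share with no gap, as in the match printed, was not computed. This search was added after the regions had been seen.

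The number of distal regions differed between the genes. CDKN3 had 7, CDKN1C and CDKN2C 6 each, CDKN2A and CDKN2B 3 each, CDKN1A 2 and CDKN1B 1. CDKN2D had none, but outside the promoter windows its start sites were nearest over 2.09 kb of sequence alone. The median of all genes with a promoter region was 2. These counts rest on coding start sites. With the start sites of all transcripts of all genes, noncoding ones among them, 13 regions were assigned, 7 at CDKN3, 5 at CDKN2C and 1 at CDKN1C. Density was counted per 100 kb of sequence nearest to the gene, within the limit and outside the promoter windows. CDKN1C had 10.5 regions, CDKN1B 9.42, CDKN2C 8.83 and CDKN3 5.84, where the CDKN1B value rests on 1 region in 10.6 kb. CDKN1A had 4.3, CDKN2A 3.91 and CDKN2B 2.91, with a median of 3.113 over 13300 genes with at least 10 kb of such sequence. The distal share of a gene's summed signal was 0 at CDKN2D and ran from 6.89% at CDKN1B, 8.76% at CDKN2A and 11.7% at CDKN1A through 32.1% at CDKN2B and 38.4% at CDKN2C to 50.3% at CDKN3 and 82.8% at CDKN1C.

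**Figure D2:**
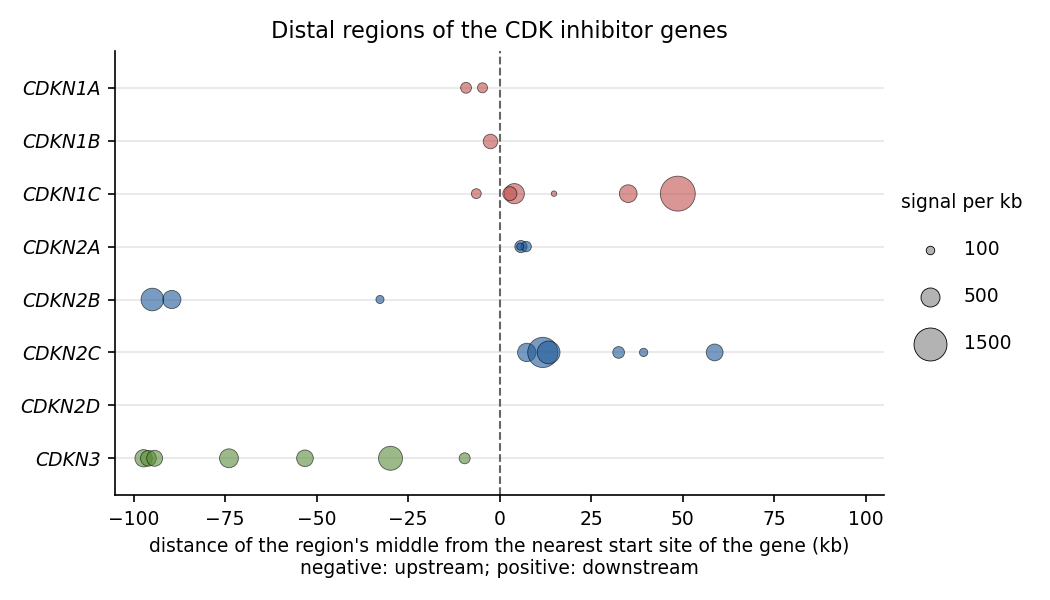
The 28 distal regions by gene (rows) and by the distance in kb of their middle from the nearest start site of that gene, upstream to the left. The area of a circle is proportional to the mean signal per kb, and the largest circle is the CDKN1C region at 1690 per kb. The row of CDKN2D is empty, and all 7 regions of CDKN3 lie upstream.

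The strongest distal region was that of CDKN1C at chr11:2836427-2837634, in an intron of the potassium channel gene KCNQ1 and 48698 bp downstream of the CDKN1C start. Its mean signal was 2042, or 1690 per kb, at percentile 98.9 of the 88448 regions outside promoters, the set behind each percentile of a distal region. That is above the CDKN1C promoter region on both scales, 812.9 per kb and a mean signal of 663.3. The other 5 CDKN1C regions ranged from 41.33 per kb, in an exon of the noncoding KCNQ1DN, to 561.9 per kb at chr11:2881040-2882365. The lowest of them was also the lowest of all 28, at percentile 7.77.

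Distal regions of CDKN2C lay downstream of the gene, all 6 between genes. The region chr1:50981908-50982209 reached 1265 per kb (percentile 97.5) from a mean signal of 382.0 over 302 bp, above the 1127 per kb of the gene's promoter. By mean signal it was far below the 2520 there. Its neighbour chr1:50983346-50983941 had 719.5 per kb (percentile 92.1). The broad region chr1:50976379-50978982, 2604 bp wide, had 1224 in total and 470.1 per kb. The other 3 had 95.51, 191.3 and 391.0 per kb.

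The 7 regions of CDKN3 were upstream, from 9538 to 97258 bp, and all were intergenic. They ran from 166.9 per kb to 795.6 per kb at chr14:54366856-54367516 (percentile 93.4), 29794 bp upstream. The 3 regions of CDKN2B all lay in introns of CDKN2B-AS1. The farthest, chr9:22103792-22104555, was 94868 bp upstream and had 707.3 per kb (percentile 91.8), its neighbour at 89554 bp had 460.0 per kb and the nearest at 32672 bp had 91.35 per kb. Those of CDKN2A had 69.76, 148.9 and 205.9 per kb, at percentiles 13.3, 44.1 and 59.3. The pair at CDKN1A had 163.9 per kb at chr6:36667034-36667562, 9163 bp upstream, and 139.2 per kb at chr6:36671706-36671887, 4664 bp upstream. Both distances run from the nearest CDKN1A start, at 36676460, which lay outside open chromatin. The single CDKN1B region, chr12:12714618-12714839, had 292.1 per kb, and its middle lay in an annotated exon of CDKN1B itself. Nearness in sequence was the sole ground for these assignments, and contact with the promoter was not measured.

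Of the 28, 19 lay above the median of the 55158 distal regions within the limit, 186.6 per kb, and their own median was 348.7 per kb. Their median percentile was 77.5 among all regions outside promoters and 74.3 among those within the limit. Of the 28, 6 (21.4%) were above the median of all promoter regions, against 8864 of the 55158 (16.1%). The 11 regions under 10 kb had a median of 166.9 per kb, from 69.76 to 561.9. The 9 at 10 to 50 kb had a median of 433.3, from 41.33 to 1690, and included the strongest of CDKN1C, CDKN2C and CDKN3. The 8 at 50 to 100 kb had a median of 403.2, from 345.1 to 707.3. Over all genes the medians of these bins were 202.3, 183.4 and 180.3 per kb. The 8 far regions belonged to CDKN3 (5), CDKN2B (2) and CDKN2C (1), so gene and distance cannot be told apart. Just inside the limit of 100 kb was a CDKN3 region at 97258 bp with 415.4 per kb, and just outside one at 104982 bp with 98.8 per kb. The region just outside the promoter window was that of CDKN1B, at 2640 bp.

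The middle 300 bases of 3 distal regions are printed, on the plus strand, because they hold the p53 match of CDKN1A, the CTCF match of CDKN2B and the strongest CDKN2C region. Capitals mark motif matches. These are the homeodomain core (TAATTA) and the p53 motif at CDKN1A, the TATA box (TATAAA) at CDKN2C, and the CTCF motif and a TATA box at CDKN2B.
CDKN1A, 9163 bp upstream, chr6:36667148-36667447: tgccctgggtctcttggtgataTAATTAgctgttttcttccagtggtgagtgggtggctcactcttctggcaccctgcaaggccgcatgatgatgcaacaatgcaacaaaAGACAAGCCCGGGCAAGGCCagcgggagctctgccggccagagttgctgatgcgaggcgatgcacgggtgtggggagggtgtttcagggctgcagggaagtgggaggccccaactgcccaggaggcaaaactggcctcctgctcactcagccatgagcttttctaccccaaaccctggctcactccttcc
CDKN2C, 11813 bp downstream, chr1:50981909-50982208: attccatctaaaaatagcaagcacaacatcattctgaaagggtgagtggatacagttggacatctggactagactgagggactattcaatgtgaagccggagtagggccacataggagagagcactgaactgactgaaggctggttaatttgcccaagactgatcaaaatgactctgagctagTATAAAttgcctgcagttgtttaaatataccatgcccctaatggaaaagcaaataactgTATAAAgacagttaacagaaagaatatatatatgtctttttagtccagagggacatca
CDKN2B, 94868 bp upstream, chr9:22104024-22104323: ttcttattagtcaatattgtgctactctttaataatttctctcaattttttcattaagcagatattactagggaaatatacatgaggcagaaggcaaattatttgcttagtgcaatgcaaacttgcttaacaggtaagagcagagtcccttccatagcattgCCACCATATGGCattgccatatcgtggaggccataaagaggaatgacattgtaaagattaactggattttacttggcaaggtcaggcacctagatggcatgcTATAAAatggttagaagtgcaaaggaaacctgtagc

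CTCF, which organises chromatin loops, had a motif match in 2 of the 28 distal windows, the one of CDKN2B and the strongest one of CDKN1C, against 12.8% of the windows of all distal regions within the limit. The p53 motif matched in 3 of 28, at CDKN1A, CDKN1C and CDKN2C, against 2.02%. The homeodomain core matched in 7 of 28, against 9.57%. These were 3 windows of CDKN3 and 1 each of CDKN1A, CDKN2A, CDKN2B and CDKN2C. FOX motifs (TGTTTAC) matched in 3 of 28, at CDKN1B and in 2 windows of CDKN3, against 9.26%. SP1 boxes were in 4 of 28 (11.1% of all), of which 3 belonged to CDKN1C. NF-Y boxes were in 6 of 28 (29.5%), the CHR motif (TTTGAA) in 8 (19.8%) and the TATA box in 4 (14.6%). Windows of the members held no match to E2F, ETS (CCGGAAG), CREB (TGACGTCA), the E-box (CACGTG), AP-1 (TGAGTCA) or NRF1, which 0.897%, 1.87%, 0.319%, 5.02%, 7.05% and 0.444% of all those windows held. A match is a string of letters and not a measured binding site.

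In the middle 300 bases of the region that stands for each promoter, SP1 boxes were found at 6 of 8 genes, all but CDKN2B and CDKN2C, against 55.5% of all promoter regions. NF-Y boxes were found at CDKN1B and CDKN2D (24.2% of all), the ETS motif at CDKN2A (9.6%) and the CTCF motif at CDKN2D (7.07%). The E2F motif, through which Rb acts on replication genes, had no match at any of the 8, against 3.62% of all promoter regions. The CHR motif, bound by the DREAM and MuvB complexes at cell-cycle genes, had none either, against 8.63%, nor had p53, against 0.97%. A CHR match did lie in the p14ARF region of CDKN2A, and another in the 250 bases upstream of CDKN3, outside the windows counted here. With the whole region searched in place of its middle, SP1 matched at all 8 genes, against 74.9% of all promoter regions. CHR then matched at 5 genes, NF-Y at 7, CTCF at 4 and E2F at 1. Whole regions held these in 28.1%, 54.7%, 18.3% and 11.2% of all promoter regions.

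**Figure D3:**
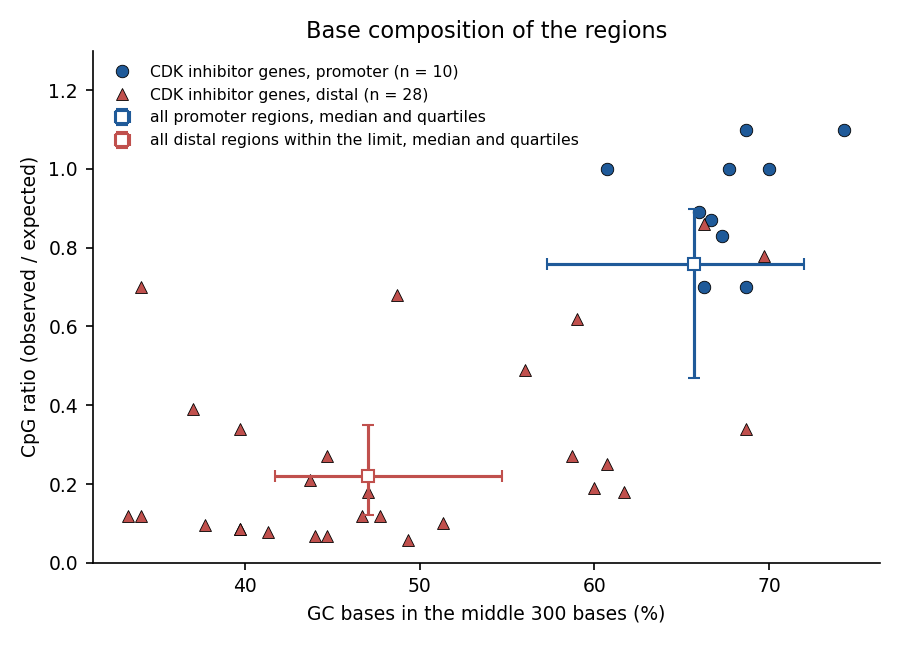
Percentage of GC bases (x axis) and ratio of observed to expected CpG dinucleotides (y axis) in the middle 300 bases of each region, circles for the 10 promoter and triangles for the 28 distal regions of the CDK inhibitor genes. Squares with bars give the medians and quartiles of all promoter regions and of all distal regions within 100 kb of a coding start site. The promoter regions lie at 60.7 to 74.3% GC, and 2 distal regions reach the CpG ratio of a typical promoter.

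The promoter regions of these genes were rich in CpG dinucleotides. Their median CpG ratio was 0.946, where 1 means as many as the base content predicts, against 0.759 over all promoter regions, and 8 of the 10 were above that median. The exceptions were the stronger CDKN2C region and the p16 region of CDKN2A, both at 0.70. GC content differed little, with a median of 67.5% against 65.7%. Distal regions had a median GC content of 46.8% and a CpG ratio of 0.185, against 47.0% and 0.220 over the distal regions within the limit. CpG ratios of 0.86 at chr1:50976379-50978982, downstream of CDKN2C, and of 0.78 at chr11:2850238-2850919, downstream of CDKN1C, were above the promoter median.

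**Figure D4:**
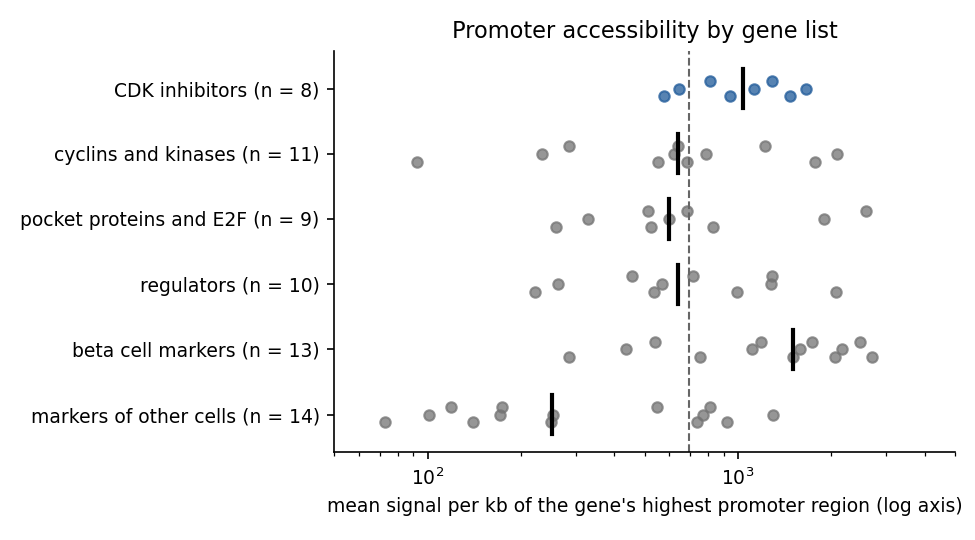
Mean signal per kb of the highest promoter region (log axis) for each gene of 6 lists, 1 point per gene as the authors' mean over all libraries. Black bars are list medians, the dashed line is the median of all genes (695.1), and points are spread vertically for legibility alone. The CDK inhibitors have a median of 1035 and the lists of their targets, of pocket proteins and E2F and of regulators medians of 639.9, 598.3 and 641.1.

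Genes that act with the inhibitors had lower promoter levels by the median. Of 31 pathway genes 30 had a promoter region, 12 of them above the median of all genes, and their median was 631.5 per kb against 1035 for the inhibitors. Among cyclins and kinases CDK4, the partner that INK4 proteins bind, was highest at 2085 per kb. CCND1, which encodes cyclin D1, was lowest at 92.66, and CCND2 had no promoter region. Of the pocket proteins and E2F factors E2F1 was highest at 2594 and E2F4, a factor of repressor complexes, lowest at 259.5. Of the regulators FOXO3, a forkhead factor that activates CDKN1B, was highest at 2064 and ZBTB17, which encodes MIZ1, lowest at 222.1 per kb.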

How the data were processed

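ATAC-seq libraries of EndoC-βH3 cells, 3 non-senescent and 3 senescent, were trimmed by the authors with Trim Galore and cutadapt and aligned to hg38 with Bowtie2. Mitochondrial reads and duplicates (Picard) were removed, and reads were shifted for the Tn5 offset with deepTools. Peaks were found with MACS2, and reads under the union of the peaks were counted with bedtools. Versions were not given in the sources used here. The deposited table lists 108542 regions with a mean signal, which the authors made with DESeq2 by dividing counts by size factors and averaging over all libraries. Its other columns hold the authors' log2 fold change between the groups, with its standard error, Wald statistic, p-value and adjusted p-value. These were not used, so no comparison of the groups was made. Values per library and depth per library were not analysed here. A region enters the union when it was open in any library, and the mean over both groups cannot show a difference between them.

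Start sites came from GENCODE 44. Region starts were read as counted from 0 and are printed plus 1, which the file does not state, so a start may be off by 1 base. A gene's promoter level was the highest mean signal per kb among its promoter regions, and percentiles are over 15490 genes or over all regions outside promoters, at any distance. Sequence came from hg38 and RefSeq. Motifs were searched on both strands in 300 bases around the middle of a region. Letters searched were TTTCCCGC, TTTGGCGC, TTTCGCGC and TTTGCCGC for E2F and those given in the text for the others. For p53, up to 2 mismatches outside the cores were accepted, with a gap of up to 13 bases, and for CTCF 1 mismatch. Code was tested on simulated regions and planted motifs. The 8 genes were all named, and of the pathway lists the highest and lowest promoter level of each role. The genes and lists were chosen with earlier results of these data known. Python 3.11.15, numpy 2.4.6 and pandas 2.3.3 were used.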

Additional observations from a re-analysis of the deposited data

How the results depend on the processing

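The number of promoter regions stayed at 10 with a window of 1 kb or 0.5 kb or a mean signal of at least 50, and was 14 with start sites of all transcripts. The number of distal regions was 20 within 50 kb, 28 with the 0.5 kb window and 21 without regions whose mean signal was under 50. It was 13 with start sites of all transcripts of all genes, noncoding ones among them, which leaves fewer to assign. Not divided by width, the median percentile of the promoter levels was 84.7 and that of the distal regions 60.3. By gene it was then 50.5 for CDKN1A, 51.8 for CDKN1B, 40.0 for CDKN1C and 86.0 for CDKN2A, whose value came from the p14ARF region. It was 84.1 for CDKN2B, 94.3 for CDKN2C, 85.3 for CDKN2D and 87.8 for CDKN3. With the sum over promoter regions the median was 80.3, with 47.3 for CDKN1B, 36.3 for CDKN1C, 95.5 for CDKN2A, 79.7 for CDKN2B, 97.5 for CDKN2C, 81.0 for CDKN2D and 83.8 for CDKN3. Within 50 kb the distal median was 57.7, and with regions within 100 kb as the background, chosen after seeing the data, 74.3. Over whole regions, motifs matched at more genes, 8 for SP1, 5 for CHR, 7 for NF-Y and 4 for CTCF. The E-box matched at 2, against 19.9% of all promoter regions searched whole. E2F, AP-1, NRF1 and TATA matched at 1 each, against 11.2%, 9.76%, 5.83% and 16.1%. A longer sequence holds more matches. The other causes were not tested. No paired analysis was possible because single libraries have no column in the table, and for the same reason leaving out a library, another count test and another normalization were not run.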

Other observations

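Beyond 100 kb, 15 more regions lay nearest to a start site of one of the 8 genes. The 3 closest were at 104982 bp from CDKN3 and at 109000 and 111322 bp from CDKN2B, with 98.8, 150.2 and 517.9 per kb, so the strong distal regions inside CDKN2B-AS1 had a neighbour of similar level outside the limit. Among pathway genes, SMAD3, which carries TGF-beta signals to CDKN2B, had 15 distal regions, the strongest at 1088 per kb. RBL2, which encodes the Rb relative p130, had 2, the strongest at 1156 per kb against 524.4 per kb at its promoter.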
